A study of Mus musculus with 43 samples.

Results

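The 9 genes Ewsr1, Taf15, Khdrbs1, Serbp1, G3bp1, Caprin1, Fbl, Ncl and Alyref encode RNA-binding proteins that carry arginine-glycine (RG) or arginine-glycine-glycine (RGG) motifs and are known as substrates of PRMT1. They were chosen by name, and all 9 were found once each among the 55401 gene identifiers of the RNA tables by their GENCODE vM21 symbol. Their RNA was followed in 10 libraries of P7 mouse testis, and their promoters in 33 CUT&Tag peak lists. CUT&Tag cuts and tags chromatin at the site of an antibody against a histone mark. Bulk RNA-seq had 3 WT and 3 Prmt1-dKO libraries, and Smart-seq2, a full-length RNA protocol for small inputs, had 2 WT and 2 Prmt1-dKO libraries of spermatogonia sorted by EGFP. The mice are C57BL/6J. In Prmt1-dKO animals, Prmt1 exons 4 and 5 are flanked by lox sites and removed by a CreERT2 recombinase knocked in at Ddx4, a germ cell gene, after tamoxifen on 3 days. Somatic cells of the testis should therefore keep Prmt1. The bulk libraries are labelled spermatogonia, but according to the protocol the RNA was extracted from whole testis. The Smart-seq2 controls are labelled WT, while the methods describe heterozygous Prmt1 +/lox animals with Cre. The CUT&Tag lists came from testis cells enriched for germ cells. By the paper's methods, tubule cell suspensions were passed through a strainer against Sertoli cells, and sorting is not described for them. WT lists at P7 and P14 covered H4R3me2a, H3R2me2a, H3R8me2a, H4R3me1, H4R3me2s, H3K27ac and H3K4me3, with 2 or 3 lists a mark. Prmt1-dKO lists covered H4R3me2s at P7, with 2 lists. The P14 lists are titled spermatogonia but have spermatocyte as their cell type, and the peak names of the 3 P14 H4R3me2s lists carry the tag SD17 where the labels give 14D. The study describes its replicates as biological, but the labels tie no library to an animal, and p-values measure the spread between these libraries.

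PRMT1 is the enzyme that makes most of the asymmetric dimethylarginine in mammalian cells, and RGG or RG stretches are its best known target sequence. Such stretches are usually unstructured and bind RNA, and methylation of their arginines is known to alter RNA binding, partner binding and the formation of condensates such as stress granules and nucleoli. None of the assays here measured methylation or protein of these genes. The values below are levels of their RNA and histone marks at their promoters.

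The motif content of the encoded proteins was counted in the longest coding sequence that GENCODE vM21 gives for each gene, as a check of the name of the group. Of 21560 coding genes 89.1% had no RGG and the median number of RG was 1, where every RGG also counts as an RG. All 9 members had at least 2 RGG, and 7 of the 9 had at least 3, as had 122 coding genes in all, or 0.566%. Ewsr1 and Taf15, related proteins of transcription and RNA processing, had the most, with 22 and 19 RGG in 661 and 557 residues. Fbl, the methyltransferase of box C/D snoRNPs, had 12 in 327 residues, Ncl, a nucleolar RNA-binding protein, had 9 in 707, Serbp1, an mRNA- and ribosome-binding protein, had 7 in 407, and Alyref, an mRNA export adaptor, had 6 in 255. Caprin1, a stress granule protein that binds G3BP1, had 3 in 707 residues. Khdrbs1 (Sam68), a splicing regulator of the STAR family, and G3bp1, the core protein of stress granules, had 2 each, with 14 and 7 RG in 443 and 465 residues. The members thus ranged from 2 to 22 RGG, as the plot of motifs per protein shows.

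**Figure D1:**
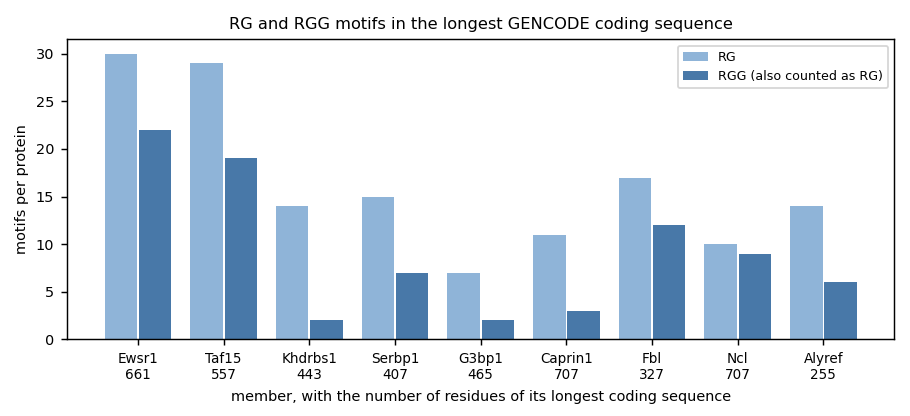
Number of RG (light) and RGG (dark) motifs in the longest GENCODE coding sequence of each member, with its number of residues under the name. Ewsr1 and Taf15 stand highest with 30 and 29 RG, and G3bp1 lowest with 7.

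The coding stretches below show how the motif is written in the genes. Each is the run of 10 codons (30 bases) with the most RGG or RG of its gene in GRCm38, 5′ to 3′ on the coding strand, and capitals mark the codons of an RGG. The runs of Ewsr1, Taf15, Serbp1 and Ncl hold 3 RGG each, that of Alyref holds 2, and those of G3bp1 and Caprin1 hold 1.
Ewsr1, exon 9, codons 320 to 329, chr11:5082258-5082287, minus strand: AGAGGTGGGCGGGGAGGAggaCGCGGTGGA
Taf15, exon 15, codons 406 to 415, chr11:83504686-83504715, plus strand: CGTGGGGGCAGAGGTGGAgacCGAGGTGGC
Serbp1, exon 7, codons 365 to 374, chr6:67281747-67281776, plus strand: ggaCGTGGTGGCAGAGGAGGACGTGGTGGG
G3bp1, exon 12, codons 426 to 435, chr11:55499546-55499575, plus strand: cttcggggacctggaggccccCGTGGTGGG
Caprin1, exon 16, codons 606 to 615, chr2:103769484-103769513, minus strand: cgtggggtatctCGAGGAGGGtctcgtggt
Ncl, exon 13, codons 663 to 672, chr1:86350843-86350872, minus strand: AGAGGTGGAggcAGAGGTGGAAGAGGTGGA
Alyref, exon 1, codons 19 to 28, chr11:120598255-120598284, minus strand: cagCGAGGAGGCCGCGGCGGGggccggggt

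In GENCODE vM21 on GRCm38, Ewsr1 lies at chr11:5069689-5099266, Taf15 at chr11:83473086-83506743, G3bp1 at chr11:55469685-55504838, Alyref at chr11:120592121-120598365, Khdrbs1 at chr4:129703164-129742303, Serbp1 at chr6:67238176-67297736, Caprin1 at chr2:103762941-103797649, Fbl at chr7:28169710-28179269 and Ncl at chr1:86344719-86359400. Ewsr1 overlaps Rhbdd3 on the opposite strand by 341 bases, Serbp1 overlaps Il12rb2 by 6419 bases, and introns of Ncl host small nucleolar RNAs such as Snord82. Where counting ignores strand, reads in such overlaps cannot be told apart. Fbl and Alyref have the close copies Fbll1 and Alyref2, so reads shared with them are uncertain.

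The libraries held 12396345 to 16598249 counts in bulk RNA-seq and 15610392 to 18547103 in Smart-seq2. The make-up of the libraries moved with genotype. In Smart-seq2 17106 and 15587 genes had a count in WT and 21404 and 20194 in Prmt1-dKO, and the 10 most abundant genes took 6.64% to 8.46% against 14.1% to 14.9% of counts. In bulk RNA-seq 22341 to 22555 genes had a count in WT and 24052 to 24487 in Prmt1-dKO, with 4.62% to 4.77% against 4.85% to 5.24% in the 10 most abundant. The part of this make-up in the values of the members was not tested. The biological coefficient of variation, the spread between replicates beyond counting error, was 0.155 in bulk RNA-seq and 0.767 in Smart-seq2. Prmt1, the targeted gene, had 237, 219 and 247 CPM (counts scaled to library size by TMM) in the bulk WT libraries and 146, 199 and 158 in Prmt1-dKO, 1.4-fold lower (edgeR FDR 0.0334). In Smart-seq2 it had 216 and 149 CPM in WT and 112 and 86.5 in Prmt1-dKO (log2 fold change -0.88, edgeR FDR 0.133, DESeq2 adjusted p 0.0168), and the genotypes did not overlap. Reads outside exons 4 and 5 still count towards the gene, so these values check the deletion only in part.

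Markers of other testis cells were called between the genotypes in bulk RNA-seq, where 8.51% of all genes fell and 10.6% rose. Of 13 Sertoli cell markers tested 7 fell, and their summed level was 7940 to 8557 TPM (a level per transcript length, scaled within the library) in WT and 5313 to 6065 in Prmt1-dKO. Of 8 Leydig cell markers 4 fell and 1 rose, with summed levels of 853 to 969 against 344 to 383 TPM, and of 7 peritubular markers 5 fell, with 1321 to 1434 against 525 to 970 TPM. Of 14 germ cell markers 1, Ddx4, fell, with summed levels of 1738 to 2012 against 1677 to 1723 TPM. Of 10 macrophage markers and of 7 endothelial markers, 2 rose and 1 fell in each list. In Smart-seq2 edgeR called 0 markers of any cell type, as it called 0 genes in all. In the sorted cells the germ cell markers summed to 3233 to 3235 TPM in WT and 2641 to 2717 in Prmt1-dKO, and those of Sertoli cells to 382 to 405 against 516 to 712. While their sum was lower, the median log2 fold change of the 14 germ cell markers was 0.60 (0.15 over all genes), with 5 at an unadjusted p under 0.05 (3911 of 16443 over all genes). Summed levels of Leydig cell markers (53.9 to 66.0 against 54.0 to 68.9 TPM) and of peritubular markers (8.19 to 42.3 against 15.8 to 25.8 TPM) overlapped. The 10 macrophage markers summed to 3.00 to 5.02 TPM in sorted WT cells, where 8 of them (Csf1r, Adgre1 and C1qa among them) stayed under 0.5 TPM, and to 66.9 to 74.8 in sorted Prmt1-dKO cells, where Adgre1 alone did. The 5 erythroid markers summed to 24.3 to 29.96 TPM in sorted WT and 83.9 to 191 in sorted Prmt1-dKO cells, which did not overlap, with a median log2 fold change of 4.01. The part of these differences in the values of the members was not tested. In bulk tissue, fewer cells of a type and less RNA per cell cannot be told apart.

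All 9 members were abundant RNAs in the testis. In the WT testis Serbp1 had the highest level, 503, 488 and 522 TPM (mean 505 ± 17.3, SD, n = 3). Ncl followed at 359 ± 5.08, and then Ewsr1 at 332 ± 13.1 and Fbl at 316 ± 24.6, whose ranges overlapped. Caprin1 stood at 205 ± 14.3 TPM. Khdrbs1 (106 ± 2.69) and Alyref (104 ± 9.44) did not differ beyond their spread, and neither did G3bp1 (61.4 ± 3.91) and Taf15 (59.0 ± 4.28), the lowest of the group. Even Taf15 was above 80.4% of the genes tested in the WT testis, but only above 72.3% in sorted WT and 56.5% in sorted Prmt1-dKO cells.

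In sorted WT spermatogonia Serbp1 was again first with 381 and 420 TPM, followed by Ncl with 299 and 327, Fbl with 299 (299.5) and 235, and Ewsr1 with 180 (179.9) and 245. Serbp1 lay above the ranges of the other 3, whose neighbours in the order overlapped. Alyref had 105 and 172 TPM, Caprin1 115 and 71.2, Khdrbs1 76.7 and 105, Taf15 44.4 and 26.96, and G3bp1 23.4 and 41.4. Alyref, Caprin1 and Khdrbs1 overlapped as neighbours, Taf15 and G3bp1 lay below them, and these 2 overlapped with each other. The ratio of the highest to the lowest member mean was 8.55 in the WT testis and 12.4 in WT spermatogonia, and it was 10.8 and 28.1 in the Prmt1-dKO groups. Levels of the assays stand side by side here without a test, because library protocol and cell source differ together.

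**Figure D2:**
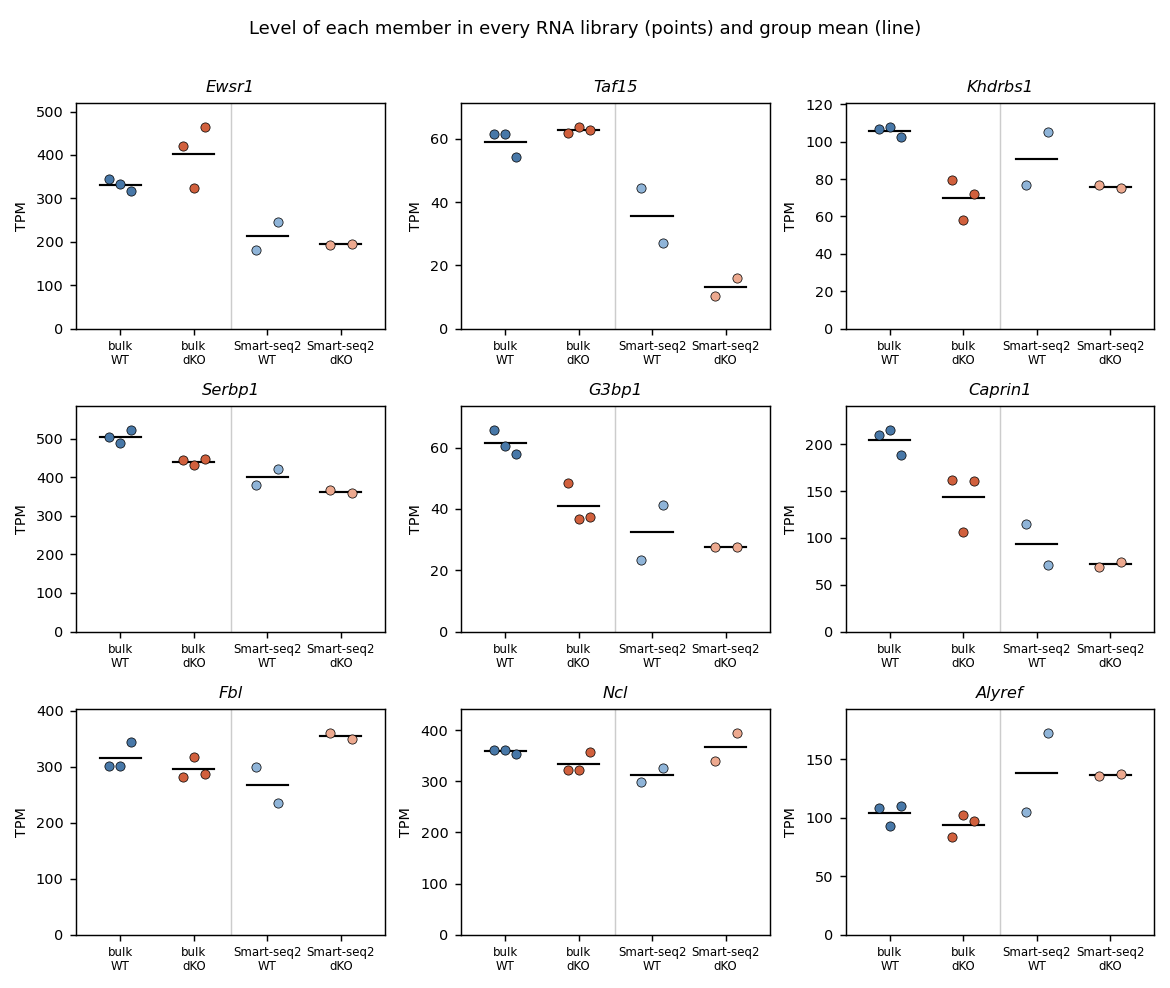
Level of each member in TPM (y axis, from 0, own scale per gene) in every RNA library (points) with the mean of each group (line). Khdrbs1, G3bp1 and Caprin1 lie lower in all 3 Prmt1-dKO testes than in all 3 WT testes, and Taf15 is lowest in sorted Prmt1-dKO cells with 10.3 and 15.9 TPM.

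The first comparison asked whether loss of Prmt1 changed the RNA of its RGG substrates in the P7 testis. Khdrbs1, G3bp1 and Caprin1 were 1.34 to 1.4-fold lower, and the other 6 members were not called in either direction by edgeR at an FDR under 0.05. Lower calls thus reached 3 of 9 members where 8.51% of all 16554 genes tested were called lower. Higher calls reached 0 of 9 where 10.6% of genes were called, and no member passed with a change of at least 2-fold, as 7.10% of genes did. The median log2 fold change was -0.08 over the members and 0.02 over all genes.

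G3bp1, whose protein nucleates stress granules, had 258, 237 and 239 CPM in WT and 194, 186 and 169 in Prmt1-dKO. Every Prmt1-dKO library lay under every WT library, and the fitted difference was 1.34-fold lower (log2 -0.42, SE 0.10, edgeR FDR 0.0214). Caprin1, its partner, had 433, 440 (439.9) and 391 CPM against 334, 277 and 328, again without overlap, and was 1.35-fold lower (log2 -0.43, SE 0.11, edgeR FDR 0.0291). The Prmt1-dKO library 2 was the lowest for Caprin1, with 106 TPM where the other Prmt1-dKO libraries had 162 and 161.

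Khdrbs1 had the lowest FDR of the 9. Its libraries held 228, 229 and 231 CPM in WT and 171, 151 and 170 (169.6) in Prmt1-dKO, 1.4-fold lower (log2 -0.48, SE 0.10, 95% interval -0.70 to -0.26, edgeR FDR 0.0111). The WT libraries were nearly equal, and the gap between the groups was wider than the spread within either. Serbp1 also lay lower in every Prmt1-dKO library, with 427, 418 and 442 CPM against 376, 411 and 390.0, but its difference of -0.13 (SE 0.10) was not called (edgeR FDR 0.378).

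The calls of Khdrbs1, G3bp1 and Caprin1 each rested on all 3 WT libraries. Without WT library 1, 2 or 3, edgeR called 0 of 9 members. Over all 16554 genes these fits called 455, 541 and 653 lower and 691, 706 and 896 higher, against 1409 and 1749 with all libraries. The FDR reached at most 0.0696 for Khdrbs1, 0.124 for G3bp1 and 0.141 for Caprin1, while each kept its direction in all 6 fits that left out a library. DESeq2 gave adjusted p of 0.000159, 0.00129 and 0.00421 for the same genes.

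Ewsr1 and Taf15 lay the other way. Ewsr1 had 319, 311 and 305 CPM in WT and 343, 336 and 389 in Prmt1-dKO, and Taf15 had 53.6, 52.8 and 53.3 against 54.7, 70.7 and 58.0. Neither gene overlapped between genotypes, but the differences of 0.19 (SE 0.10, edgeR FDR 0.219) and 0.20 (SE 0.12, edgeR FDR 0.284) were not called. In all, 2 members had every Prmt1-dKO library above every WT library, where 20.9% of genes did, and 4 members had every Prmt1-dKO library below, where 19.9% did.

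Fbl, Ncl and Alyref overlapped between genotypes in the testis. Fbl had 176, 177 and 212 CPM in WT and 170 (169.8), 237 and 187 in Prmt1-dKO, with a difference of 0.07 (SE 0.14, 95% interval -0.26 to 0.39). Ncl had 809, 802 and 832 CPM against 738, 910 (909.8) and 838, a difference of 0.03 (SE 0.11, 95% interval -0.22 to 0.27). For Alyref the values were 89.8, 86.7 and 88.7 CPM against 76.0, 98.1 and 77.6, a difference of -0.08 (SE 0.12, 95% interval -0.35 to 0.20). In each of the 3 genes Prmt1-dKO library 2 was the highest of its group, and without it the differences of Fbl and Ncl turned to -0.08 and -0.05.

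In sorted spermatogonia edgeR called 0 genes of 16443 (0.00%), so 0 of 9 members. At an unadjusted p under 0.05 there were 3911 genes, among them 2 members, and other tools called 2501 (DESeq2) and 1753 (limma-voom) genes. The members at those p-values were the nucleolar genes Fbl and Ncl. Fbl had 233 and 184 CPM in WT and 344 and 299 in Prmt1-dKO, a difference of 0.63 on the log2 scale (SE 0.19, edgeR p 0.0236, edgeR FDR 0.133). Ncl had 587 and 705 CPM against 872 and 883, a difference of 0.44 (SE 0.16, edgeR p 0.0398, edgeR FDR 0.183). Both lay above every WT library. DESeq2 called Fbl (0.58, adjusted p 0.0292) and not Ncl (adjusted p 0.0638), so 1 of 9 members was called higher where DESeq2 called 8.99% of genes higher.

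Taf15 was low and uneven in sorted cells, with 23.5 and 13.8 CPM in WT and 7.34 and 9.73 in Prmt1-dKO. Both Prmt1-dKO libraries lay below both WT libraries, yet the difference of -1.13 (SE 0.71, 95% interval -2.99 to 0.73) was not called (edgeR FDR 0.443). Caprin1 went the other way from the testis, with 180.0 and 113 CPM in WT and 218 and 202 in Prmt1-dKO, a difference of 0.52 (SE 0.26, edgeR FDR 0.344). By CPM, Taf15 alone of the 9 members had both Prmt1-dKO libraries below both WT libraries, where 20.3% of genes did, and Caprin1, Fbl and Ncl had both above, where 36.3% did.

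The other 5 members overlapped between the sorted groups by CPM. Khdrbs1 had 195 and 288 CPM in WT and 240 (239.8) and 222 in Prmt1-dKO (-0.06, SE 0.23), and G3bp1 had 122 and 188 against 178 and 158 (0.12, SE 0.26). Serbp1 had 378 and 405 against 421 and 396 CPM (0.06, SE 0.14, 95% interval -0.30 to 0.42), but per length it lay below in both Prmt1-dKO libraries, with 381 and 420 against 366 and 359 TPM. Ewsr1 had 265 and 394 CPM against 358 and 315 (0.03, SE 0.24), and Alyref had 62.1 and 103 against 104 and 97.4 (0.29, SE 0.30). For Ewsr1, Khdrbs1 and G3bp1 both Prmt1-dKO values lay between the WT values, and WT library 1 was the lower in all 5 genes.

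Whether the genotype difference itself differed between whole testis and sorted spermatogonia was tested with an interaction term over all 10 libraries. It passed for Caprin1, whose difference was higher in sorted cells by 1.03 (SE 0.27, 95% interval 0.41 to 1.66, edgeR FDR 0.0309), and for Taf15, whose difference was lower by 1.24 (-1.24, SE 0.36, 95% interval -2.07 to -0.42, edgeR FDR 0.0446). This fit gives a gene the same spread in both assays, although the biological coefficient of variation common to all genes was 0.155 in bulk RNA-seq and 0.767 in Smart-seq2. Both tests use that shared spread, and the SE of Taf15 is below the 0.71 of its Smart-seq2 difference alone. These are 1 of 9 members in each direction, where 14.7% of 19608 genes were called above 0 and 4.24% below 0. The median over all genes was 0.22, so that sorted cells leaned upwards in general, and with another scaling (RLE) it was 0.10. Khdrbs1 (0.51, edgeR FDR 0.154) and G3bp1 (0.63, edgeR FDR 0.108) were called lower in the testis alone, but the test did not show that their difference was another in sorted cells. For Fbl (0.64, edgeR FDR 0.109) and Ncl (0.51, edgeR FDR 0.0707) it did not pass either, nor for Alyref (0.46), Serbp1 (0.28) or Ewsr1 (-0.07).

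Both calls depended on the libraries used. Of the 10 fits that left out a library, 2 still called Caprin1 and 2 still called Taf15. Those were the fits without a Smart-seq2 WT library, which leave 1 library in that group, take its spread from the other groups and called 7491 and 8801 genes in place of 3722. In the other 8 fits both calls were lost, and the edgeR FDR reached 0.0979 for Caprin1 and 0.146 for Taf15. The direction was kept in all 10 for each gene. With no filter on low counts Taf15 had an edgeR FDR of 0.0648.

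**Figure D3:**
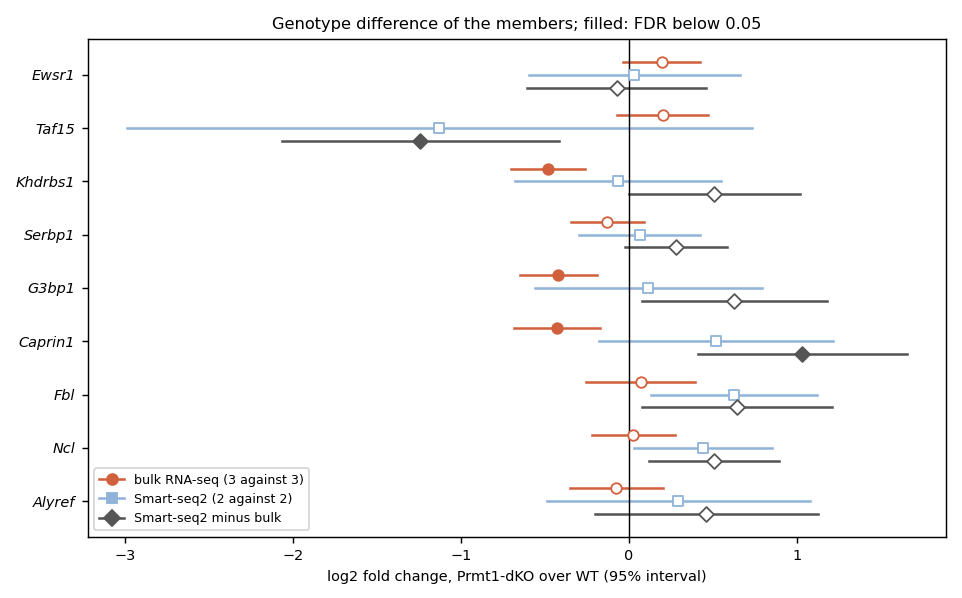
Log2 fold change of Prmt1-dKO over WT for each member (x axis, with 95% intervals) in bulk RNA-seq, in Smart-seq2 and as the difference between the assays; filled symbols have an edgeR FDR under 0.05. Khdrbs1, G3bp1 and Caprin1 are filled in bulk at -0.48, -0.42 and -0.43, and Taf15 and Caprin1 are filled for the difference at -1.24 and 1.03.

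The Caprin1 reads in sorted cells moved together with the estimated length of its transcripts. RSEM writes, for each gene and library, the mean length of its transcripts weighted by abundance, which changes when the mixture of isoforms is estimated to change. For Caprin1 this length was 2164 and 2199 bases in sorted WT cells and 3385 and 3297 bases in sorted Prmt1-dKO cells, and it was 3121 to 3486 bases in all 6 bulk libraries. The sorted WT libraries thus stood apart from the other 8, with a ratio of 1.53 between the sorted groups. Of 8750 genes with several annotated transcripts and a TPM of at least 1 in every Smart-seq2 library, 5.27% shifted as much or more. Longer transcripts give more reads for the same number of molecules, and per length Caprin1 had 115 and 71.2 TPM in sorted WT and 69.3 and 74.3 TPM in Prmt1-dKO, which overlap. When counts were scaled by transcript length, an alternative chosen after seeing the data, the Smart-seq2 difference was -0.10 (edgeR FDR 0.898) and the difference between assays fell to 0.35 (edgeR FDR 0.504).

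Ewsr1 showed a shift of the other kind in the testis. Its mean transcript length was 1711, 1734 and 1688 bases in WT and 1496, 1541 and 1431 bases in Prmt1-dKO, which did not overlap, a ratio of 1.15 that 10.3% of 11716 genes reached. With length-scaled counts its difference rose from 0.19 to 0.42 and was called (edgeR FDR 0.0449), so 1 of 9 members was called higher where 8.27% of genes were. Per length, Ewsr1 had 344, 333 and 318 TPM in WT and 420 (419.8), 323 and 464 in Prmt1-dKO, and Prmt1-dKO library 2 overlapped with WT. The same scaling left Khdrbs1 (-0.45, edgeR FDR 0.0212) and G3bp1 (-0.45, edgeR FDR 0.0322) called lower, but Caprin1 (-0.38, edgeR FDR 0.0877) was no longer called in the testis.

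Over the group, 3 of 9 members (Ewsr1, Khdrbs1 and Fbl) had shorter mean transcripts in every Prmt1-dKO testis, where 11.6% of genes did, and 0 had longer ones in every library, where 9.59% did. The shifts of Khdrbs1 and Fbl were small, 1.02 and 1.01 as ratios of WT to Prmt1-dKO. In sorted cells 3 of 9 (Taf15, Caprin1 and Alyref) had longer transcripts in both Prmt1-dKO libraries, where 25.6% of genes did, and 0 had shorter ones, where 17.8% did. Taf15 moved from 882 and 844 bases to 946 and 903, and was thus estimated as shorter in sorted cells than in the testis (1550 to 1728 bases). So were Alyref (948 to 1014 against 1377 to 1732 bases) and Ncl (2660 to 2912 against 3551 to 3764). Ewsr1 was estimated as longer in sorted cells (2037 to 2222 against 1431 to 1734 bases). Library protocol and cell source differ together here, and no test was run.

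**Figure D4:**
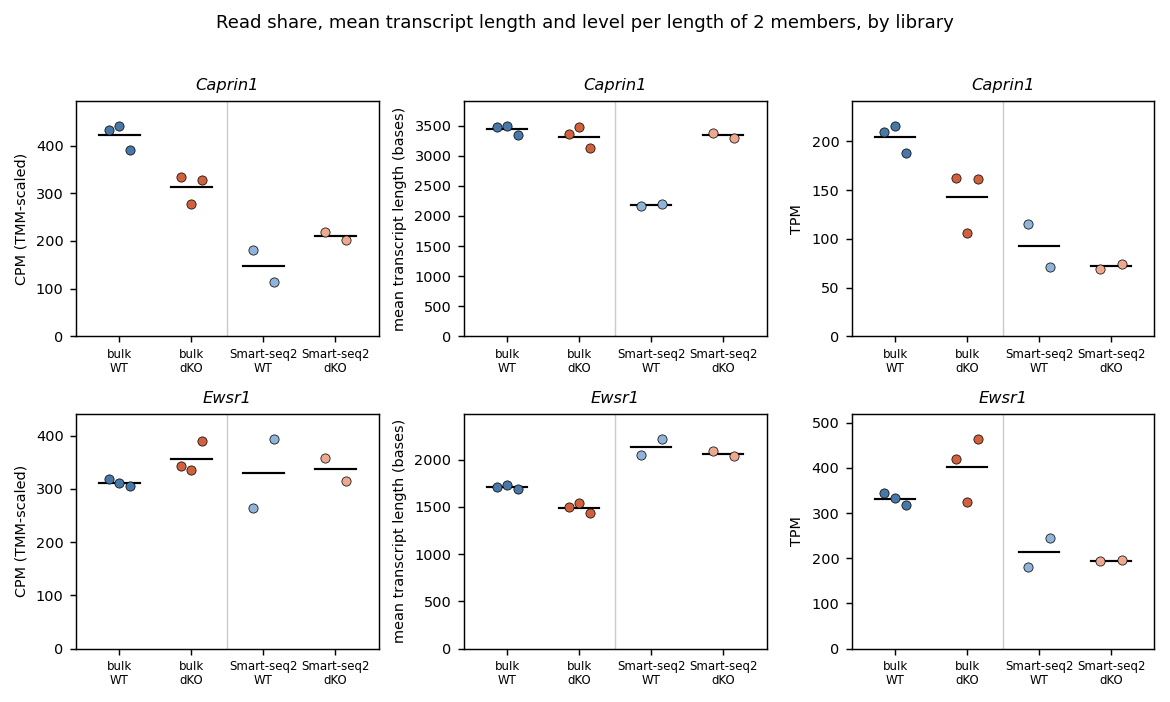
Read share (CPM), mean transcript length (bases) and level per length (TPM) of Caprin1 and Ewsr1 in every RNA library (points) with group means (lines); all y axes start at 0. Caprin1 transcripts are estimated at 2164 and 2199 bases in sorted WT cells and at 3121 to 3486 bases in the other libraries, and the sorted groups overlap by TPM but not by CPM.

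Closely related genes were read beside the members. Of 7 paralogs tested in the testis 0 were called by edgeR in either direction, with 1 at an unadjusted p under 0.05, where 10.6% of all genes were called higher, 8.51% lower and 5607 of 16554 had such a p. G3bp2, the second G3BP, differed by -0.38 (SE 0.15, edgeR FDR 0.104), close in size to G3bp1 itself. Caprin2 differed by 0.23 in the testis and by -0.99 in sorted cells, and the difference between assays was called (-1.13, SE 0.21, edgeR FDR 0.00693), opposite in sign to that of Caprin1, as 1 of 7 paralogs where 4.24% of all genes were called below 0. Habp4, the relative of Serbp1, differed by -0.04 in the testis (edgeR FDR 0.832).

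Of 34 other genes whose proteins carry RGG or RG repeats, 1 rose and 3 fell in the testis, where 10.6% of all genes rose and 8.51% fell, with a median of -0.11. Pabpn1, the nuclear poly(A)-binding protein, rose by 0.62 (edgeR FDR 0.00558). Ddx4, the germ cell RNA helicase and the gene that carries the Cre insertion, fell by 0.67 (edgeR FDR 0.0184), Sfpq, a paraspeckle protein, by 0.57 (edgeR FDR 0.00466), and Hnrnpa3 by 0.34 (edgeR FDR 0.0401). In sorted cells edgeR called 0 of the 34, as it did of all genes, with 10 at an unadjusted p under 0.05 where 3911 of 16443 genes were. The difference between assays was called above 0 for 9 of them, led by Lsm14b (2.92), Hnrnpa1 (1.81) and Ybx1 (1.59), and below 0 for 1, Mre11a (-0.88), where 14.7% and 4.24% of all genes were called.

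Partners and other genes of the same compartments were counted by role. Over all genes, 10.6% rose and 8.51% fell in the testis, and 14.7% were called above 0 between assays. Of 12 stress granule partners of G3bp1 and Caprin1, 1 rose and 2 fell in the testis. Tial1, an RNA-binding protein of these granules, rose by 0.68 (edgeR FDR 0.00387), and Eif4g1, the scaffold of the cap-binding complex, and Usp10, which binds G3BP1, fell by 0.72 (edgeR FDR 0.00481) and by 0.40 (edgeR FDR 0.0455). Of 11 genes of box C/D snoRNPs or other nucleolar proteins, read beside Fbl and Ncl and not all their partners, 1 rose, Gnl3 (0.52, edgeR FDR 0.0336), and 0 fell. Their median in sorted cells was 0.40 beside 0.15 over all genes, with 5 of 11 at an unadjusted p under 0.05 (3911 of 16443 over all genes), and the difference between assays was called above 0 for Nop10 (0.87) and Nop58 (0.72). Of 11 mRNA export partners of Alyref, 1 rose, Thoc1 (0.54, edgeR FDR 0.00616), and 0 fell. Among 8 arginine methyltransferases tested, Prmt1 fell and none of the other 7 was called, with Prmt5, which makes symmetric dimethylarginine, at 0.13 (edgeR FDR 0.466) and Carm1 at -0.24 (edgeR FDR 0.121).

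The promoters of 7 members are in the RefSeq promoter table (GRCm38.p6, 250 bases before to 50 after the start). They had 64.0% to 78.7% GC and 24 to 54 CpG, where the median of 32851 promoters was 52.7% and 7. The GC box GGGCGG, read on both strands, was in 6 of 7, and in 35.7% of all promoters. The ETS core CCGGAAG was in those of Alyref and Serbp1 and in 8.86% of all, and the letters CACGTG, TGACGTCA, GCATGCGC and GATGGCGG were in 0 of 7 and in 7.15%, 1.79%, 2.71% and 1.70% of all. The stretches below hold the most motif bases of 4 promoters, with GC box or ETS core letters of either strand in capitals and all sequences given 5′ to 3′ on the strand of the gene. Alyref has the ETS core at 2 places 20 bases apart, and the GC boxes of Caprin1 overlap.
Alyref, chr11:120598395-120598424, minus strand, 59 to 30 bases before the start: cgCCGGAAGgcagggggaggcgCCGGAAGt
Caprin1, chr2:103797143-103797172, minus strand, 94 to 65 bases before the start: gaggggggagGGGCGGGCGGcccggcgccc
Ncl, chr1:86359518-86359547, minus strand, 92 to 63 bases before the start: aggccCCGCCCctaagagccCCGCCCtcgt
G3bp1, chr11:55469700-55469729, plus strand, 52 to 23 bases before the start: cggctatatagcGGGCGGcgggcacgcgtg

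A member was counted as having a promoter peak in a list where a peak summit lay within 3000 bp of any of its transcript starts. H3K4me3, the mark of active promoters, was present at all 9 members in all 4 lists, which is 18 of 18 member and list pairs at P7, where 83.0% of pairs of a list and a gene tested in bulk RNA-seq had a peak, and 18 of 18 at P14, where 84.9% had. Its best peaks had a fold enrichment over local background of 4.22 to 6.20 at P7 and 4.82 to 7.65 at P14, where Fbl had the highest. H3K27ac, a mark of active promoters and enhancers, was present in 15 of 18 pairs at P7 (53.6% over all genes) and in 18 of 18 at P14 (73.5%). At P7, Taf15, Khdrbs1 and G3bp1 each lacked it in 1 of 2 lists.

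The arginine marks divided the members more than the lysine marks did. In WT cells at P7, 45 of 99 pairs had a peak of H4R3me2a, H3R2me2a, H3R8me2a, H4R3me1 or H4R3me2s (45.5%), where 30.5% of all pairs had. Ncl had them in 10 of 11 lists, G3bp1 in 9 and Ewsr1 in 8, while Serbp1 had 6, Taf15 and Caprin1 4 each, Khdrbs1 2, and Fbl and Alyref 1 each. At P14, 90 of 108 pairs had a peak (83.3%), where 57.6% of all pairs had. Ewsr1, Taf15, G3bp1 and Ncl had peaks in all 12 lists, Serbp1 and Caprin1 in 11, Khdrbs1 in 8, Alyref in 7 and Fbl in 5. The Ewsr1 peak in P14 H4R3me2s list 1 lies inside the gene, at chr11:5076961-5077207, and was not counted with starts of protein-coding transcripts only or within 1000 bp. The Ewsr1 peak in P7 H4R3me1 list 1 (chr11:5072168-5072459) and the Fbl peak in P14 H3R2me2a list 2 (chr7:28175118-28175321) also lie inside the gene and were not counted with starts of protein-coding transcripts only. With those starts only, 44 of 99 pairs had a peak at P7 (24.8% over all genes) and 88 of 108 at P14 (50.7% over all genes). The G3bp1 peak in P7 H3R8me2a list 1 had its summit 2764 bases from the nearest start and was not counted within 1000 bp. The best Ncl peak in P7 H3R2me2a list 2 (chr1:86348546-86348745) lies in the 3′ part of the gene, but Ncl kept a peak in that list within 1000 bp. Fbl and Alyref were at the bottom of both ages, although H3K4me3 was present at both in every list. The sequence in reach of the annotated starts ran from 6034 bases at G3bp1 with 2 starts to 27071 at Ewsr1 with 12, each with peaks in 29 of the 33 lists. The 3 members with peaks in the fewest lists, Fbl (14 lists, 11285 bases), Alyref (16 lists, 8709 bases) and Khdrbs1 (18 lists, 12009 bases), had less sequence in reach than Taf15 (24 lists, 12031 bases), Ncl (32 lists, 13528 bases), Serbp1 (26 lists, 17257 bases) and Caprin1 (23 lists, 20682 bases). The part of this length in the counts was not tested.

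Several promoters are shared, and a peak there cannot be given to a gene. The start of Ewsr1 lies 7 bases from that of Rhbdd3 on the opposite strand, and that of Alyref 56 bases from that of Anapc11. Read numbers behind the lists are unknown. P14 lists of the arginine marks held 18423 to 55908 peaks and those of P7 15361 to 36145, and with each list limited to its 15361 best peaks by p, members had peaks in 43.4% of pairs at P7 (25.5% over all genes) and 74.1% at P14 (40.6% over all genes).

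**Figure D5:**
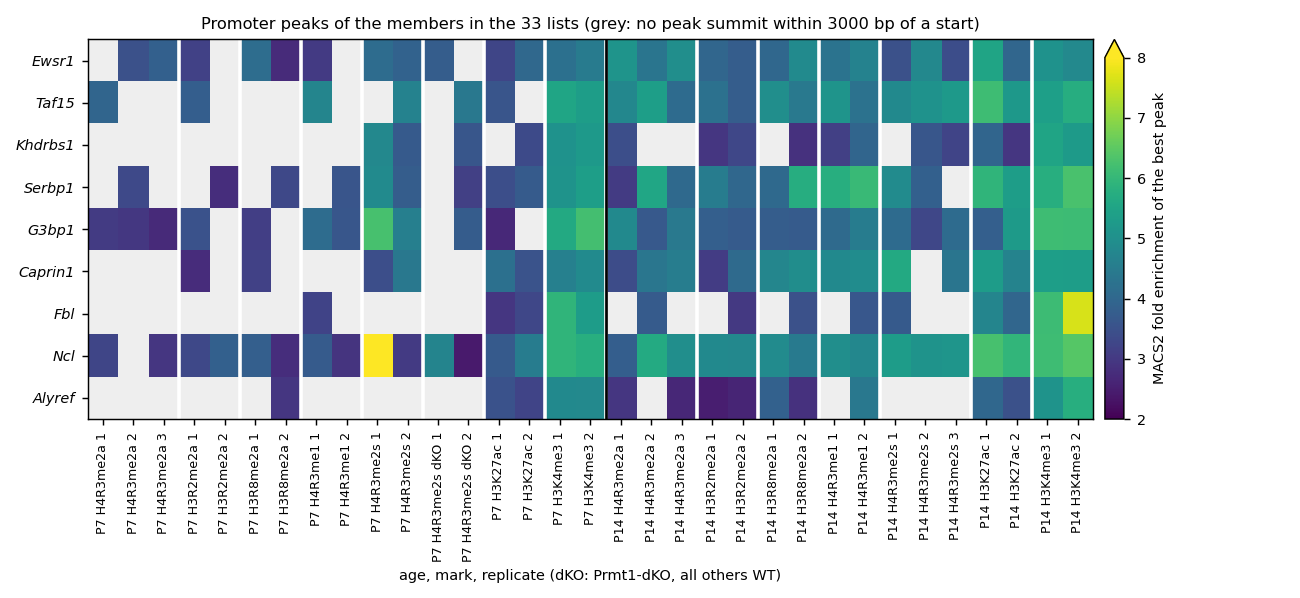
Fold enrichment over local background (MACS2, colour) of the best promoter peak of each member (rows) in each of the 33 peak lists (columns, by age, mark and replicate); grey means no peak summit within 3000 bp of a start, and values above the scale are drawn in its top colour. H3K4me3 columns are filled for all 9 members, and Fbl and Alyref are grey in most P7 arginine mark columns.

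H4R3me2s, the symmetric mark at arginine 3 of histone H4, was the only one profiled in both genotypes. In WT cells at P7, 13 of 18 pairs had a promoter peak (72.2%, with 42.8% over all genes), and Ewsr1, Khdrbs1, Serbp1, G3bp1, Caprin1 and Ncl had it in both lists. In Prmt1-dKO cells 7 of 18 pairs had a peak (38.9%, with 30.5% over all genes). Ncl alone had it in both Prmt1-dKO lists, and Ewsr1, Taf15, Khdrbs1, Serbp1 and G3bp1 had it in 1 of 2. Caprin1 had a peak in both WT lists, with fold enrichments of 3.45 and 4.40, and in neither Prmt1-dKO list, and Fbl and Alyref had none in any of the 4. No test over lists was run, and the Prmt1-dKO lists differed, with 2 members in list 1 and 5 in list 2.

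The WT lists held 19981 and 36145 peaks and the Prmt1-dKO lists 33941 and 28221, of which 3112 and 1680 against 1038 and 748 had a q of at most 0.01. At that q 5 of 18 pairs had a peak in WT (27.8%, with 8.24% over all genes) and 0 of 18 in Prmt1-dKO (1.47% over all genes). The 5 were Khdrbs1, Serbp1, G3bp1 and Ncl in WT list 1 and G3bp1 in WT list 2. In WT list 1 the best peaks of Khdrbs1 (chr4:129714949-129715394) and Ncl lie inside the gene, away from its 5′ end. At G3bp1 the best peak had a fold enrichment of 6.25 and 4.59 in the WT lists and 3.75 in Prmt1-dKO list 2. The Prmt1-dKO peak lies at chr11:55468276-55468475, with its summit 1272 bases from the start, overlaps neither WT peak and was not counted within 1000 bp. The WT peak of list 1 there, chr11:55469104-55469901, contains the promoter stretch printed above.

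By fold enrichment, the strongest peak of any member in any list was at Ncl, in H4R3me2s list 1 of WT cells at P7. Its fold enrichment was 14.4 where the median of that list was 3.55. By p it was not the strongest, with a −log10 p of 42.3 against 49.4 for the H3K4me3 peaks of Ewsr1 and Fbl at P14. It ranked 61st by p among the 19975 peaks of the list outside mitochondrial DNA. It lies at chr1:86350384-86351122, in the 3′ part of the gene, and was counted because GENCODE places short internal transcripts there whose nearest start is 444 bases from its summit. The peak covers exon 13 of the full transcript (chr1:86350812-86351035), the exon that encodes the 10-codon run with 3 RGG printed above. No other of the 33 lists had a peak overlapping it, and the best Ncl peak in H4R3me2s list 2 of WT had a fold enrichment of 3.01 at the 5′ end, chr1:86359672-86360120.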

How the data were processed

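RNA was measured in 10 libraries and histone marks in 33, with groups from the sample labels. The authors trimmed reads with fastp 0.23.2 and ran STAR and RSEM on mm10. Their deposited expected counts carry no normalization and were rounded here. The TPM the authors deposited are scaled within each library and gave the levels, and the FPKM they deposited were not used. The RSEM version and annotation were not given in the sources used here. Version-free identifiers matched GENCODE vM21 for 55141 of 55401.

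Counts were filtered (filterByExpr, at least 10 counts and 15 in total), scaled by TMM and tested by genotype within each assay with edgeR 4.0.16 (quasi-likelihood, R 4.3.3), and over both assays for the difference between them. P-values were adjusted over all genes tested (Benjamini-Hochberg), and genes were called at an FDR under 0.05. The tests within each assay were tested on simulated counts with known changes, of which most were recovered in bulk RNA-seq and few in Smart-seq2. limma 3.58.1 and DESeq2 1.42.0, the tool of the study, were alternatives, with other scaling, filters, a replicate block and left-out libraries.

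The authors called peaks with MACS2 2.1.0 per sample, at a p of 0.005 or, for H3K4me3, a q of 0.05 by the peak names. Each deposited list gives a fold enrichment (a ratio to local background), −log10 p and −log10 q, and the display score the authors deposited was not used. Coding sequences of GENCODE vM21 were translated with Biopython 1.88, and promoters came from RefSeq (GRCm38.p6), where 7 of 9 members matched.

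The members, the lists of related genes and the markers were chosen with earlier results of these data known. Named genes are all members, Prmt1, paralogs, and of each further list at most 3 called genes a direction, those changed most. Prmt5 and Carm1 fall outside this rule and were chosen after their values were seen. Zc3h11a, with more than 1 table row, was left out of its list. A result of the paralog list is not reported here.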

Additional observations from a re-analysis of the deposited data

Results flagged for a closer look

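The genotype difference of Taf15 differed between the assays by -1.24 on the log2 scale (SE 0.36, edgeR FDR 0.0446), by a test of the difference itself in a fit that gives a gene the same spread in both assays. That SE is below the 0.71 of the Smart-seq2 difference alone. Its libraries had 53.6, 52.8 and 53.3 CPM (WT) and 54.7, 70.7 and 58.0 (Prmt1-dKO) in the testis but 23.5 and 13.8 against 7.34 and 9.73 in sorted cells, so that the sorted difference was -1.13 and the bulk difference 0.20. Neither was called within its assay. The call of Taf15 was lost in 8 of 10 fits that left out a library (edgeR FDR up to 0.146), with the replicate block (edgeR FDR 0.152) and with no filter on low counts (edgeR FDR 0.0648). The genotype difference of Caprin1 differed between the assays by 1.03 (SE 0.27, edgeR FDR 0.0309), from -0.43 in the testis to 0.52 in sorted cells. With length-scaled counts the value was 0.35 (edgeR FDR 0.504). The call of Caprin1 too was lost in 8 of 10 fits that left out a library and with the replicate block. In sorted Prmt1-dKO cells macrophage markers summed to 66.9 to 74.8 TPM against 3.00 to 5.02 in WT, and their part in both values was not tested.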

How the results depend on the processing

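Leaving out each library in turn gave 1146 to 5299 called genes in bulk RNA-seq (3158 with all), 0 to 9246 in Smart-seq2 (0 with all) and 2587 to 8801 for the difference between assays (3722 with all). A fit without a Smart-seq2 library leaves 1 in its group, which is assumed to vary like the others. Members called lower in bulk RNA-seq ranged from 0 to 3. In Smart-seq2 0 to 2 members were called higher and 0 to 1 lower, and for the difference between assays 0 to 5 above 0 and 0 to 1 below. Samples that share a replicate number did not deviate together (correlations of 0.11, -0.31 and -0.21 in bulk RNA-seq), so the numbers do not pair them. With the replicate block, 1828 genes and 0 members were called in bulk RNA-seq, where Khdrbs1 had an edgeR FDR of 0.0514, and 2295 genes and 0 members for the difference between assays. DESeq2 called 2501 genes and 1 member higher in Smart-seq2 and limma-voom 1753 genes. Length-scaled counts, added after seeing the data, called 1 member higher in bulk RNA-seq and 0 members above 0 between assays. With no filter on low counts 0 members were below 0 between assays. Differences that turned sign were those of Alyref in bulk RNA-seq (0.019 length-scaled), of Fbl (-0.077 to 0.15) and Ncl (-0.046 to 0.089) with a library left out, and in Smart-seq2 of Ewsr1 (-0.024 by DESeq2, -0.020 by RLE, -0.23 to 0.35 with a library left out), Khdrbs1 (0.015 length-scaled, -0.32 to 0.24), G3bp1 (-0.16 to 0.46), Caprin1 (-0.10 length-scaled) and Alyref (-0.025 to 0.70), none of which was called in either form, and of Ewsr1 between assays (-0.32 to 0.23). Each member has a value in each alternative fit, and direction and call were kept in 90 of 108 such values in bulk RNA-seq, 75 of 90 in Smart-seq2 and 99 of 126 between assays. At a q of at most 0.01, member pairs with a promoter peak were 12.1% for P7 arginine marks (4.41% over all genes), 63.9% for P14 arginine marks (27.2%), 27.8% for P7 H4R3me2s in WT (8.24%) and 0% in Prmt1-dKO (1.47%), and without a Prmt1-dKO list the last was 22.2% to 55.6% at the main threshold. By RPKM the ratio of the highest to the lowest member in sorted Prmt1-dKO cells was 34.1, against 28.1 by TPM. The causes of these changes were not tested. The peak lists carry no read depth, so an absent peak may be a matter of depth.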
